A study of Mus musculus with 2 samples.

Results

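Galnt14, 6 other GalNAc transferase genes (Galnt1, Galnt2, Galnt3, Galnt6, Galnt10 and Galnt12) and 3 sialyltransferase genes (St6gal1, St3gal1 and St3gal6) were followed in lymph node B cells with and without a functional Ccr7 gene. They are 10 of the 27597 gene names on the array, read by 17 of its 41174 probes, and were found by the gene name printed for each probe. They were chosen by the measured fall of Galnt14 in the knock-out on these same arrays, and the other 9 for belonging to related enzyme families. The ratios of knock-out over wild-type are therefore given as a description. The limma adjusted p of Galnt14 and the count of members past the threshold are quoted below, but carry no weight as evidence. The wild-type cells came from C57BL/6J mice and the knock-out cells from the strain B6.129P2(C)-Ccr7tm1Rfor/J, which carries a targeted allele of Ccr7. The labels give no age and no treatment for either. B cells of peripheral lymph nodes were sorted by flow cytometry and lysed without culture, and the RNA of 3 sorted samples was combined in each of the 2 pools of a genotype. Each of the 2 arrays held 1 pool of each genotype, with the knock-out in Cy5 on array 1 and in Cy3 on array 2.

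Mucin-type O-glycosylation begins in the Golgi, where a GalNAc transferase attaches N-acetylgalactosamine to serine or threonine of a passing protein. The many enzymes of this family prefer different peptides, and some act best on peptides that already carry the sugar. The sugar is then extended with galactose, and sialyltransferases cap the chain with sialic acid. On lymphocytes such chains cover CD43, CD45 and PSGL-1, and sialylated, fucosylated chains serve as ligands of selectins. ST6GAL1 makes the sialic acid linkage that the B-cell inhibitory receptor CD22 binds.

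The array reads each transcript through probes of 60 bases, and the probes below are those on which the account of Galnt14 and St3gal6 rests, together with the probe of lowest GC content. For each, the first 30 bases of the probe are given 5′ to 3′, as deposited, in lower case throughout since no part of them is singled out.
Galnt14 probe 1: cttgtcactgtgccaggacgacatggagag
Galnt14 probe 2: ttcctttccatgtttacacctactccttga
St3gal6 probe: aatggtgatcaacttgacttaaaattgacc
Galnt10 probe 3: atagattacatgagggatatttttatatga

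On the mm8 build named in the file headers, Galnt14 probe 1 lies on the minus strand of chr17:73398656-73398715 and was designed from the RefSeq transcript NM_027864. Galnt14 probe 2 lies at chr17:73412479-73412538, 13823 bases away, and was designed from the kidney cDNA AK002747. The St3gal6 probe lies on the minus strand of chr16:58413152-58413211 (NM_018784). Galnt10 probe 3 lies at chr11:57543038-57543097, 58898 bases from the nearest other Galnt10 probe, and only 21.67% of its bases are G or C. Exons, introns and untranslated regions were not assigned, because an annotation of mm8 was not used here. Galnt10 is the member on the chromosome of Ccr7, with its nearest probe 41.36 Mb away.

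Between 58.4% and 68.8% of spots were well above background in the 4 channels, and no spot was saturated. All 10 B-cell markers, among them Ms4a1, Cd79a and Cd79b, were well above background in every channel. In the knock-out 2 were higher on both arrays (Cd22 and Blk), as were 24.2% of all genes. Another 2 were lower on both (Pax5 and Fcrla), as were 30.0% of all genes, with Pax5 at log2 ratios of -0.79 and -0.86. Ms4a1 (1.75 and -1.23) and Cd79b (1.45 and -1.52) went opposite ways on the arrays. The Ccr7 probe gave less signal from knock-out pools, its ratios being -1.11 and -0.74 (log2). Whether that probe lies in the deleted part is not known here, so it does not check the deletion. Across genes, which are not replicates, the ratios of the 2 arrays correlated weakly (Pearson's r = 0.098), and 2 arrays limit the precision of every value. Errors are the SD between arrays. They hold the difference between pools together with any dye effect, and not the spread between the 12 sorted samples. In sorted but pooled RNA, fewer cells that express a gene and less RNA per cell cannot be told apart.

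Galnt14, which encodes a GalNAc transferase linked to the O-glycosylation of death receptors, was 2.19-fold lower in the knock-out. Its probe 1 gave mean spot intensities of 833 and 659 in the wild-type pools and 423 and 184 in the knock-out pools of arrays 1 and 2, over local backgrounds of 49 to 55.5. After normalization its level (log2 intensity) was 9.49 and 9.15 in the wild-type and 8.43 and 7.95 in the knock-out. Both knock-out pools lay below both wild-type pools, with a gap of 0.72 on the log2 scale between the nearest of them. That gap is larger than the 0.34 between the wild-type pools and the 0.48 between the knock-out pools. As knock-out over wild-type, array 1 gave a log2 ratio of -1.06 and array 2 gave -1.20, a mean of -1.13 ± 0.10 (SD, n = 2). All 4 channels were well above background and none was read at low gain, the scan used for very bright spots. In the fit of 17695 genes only 10 genes had a lower mean ratio than Galnt14, which stood at place 11. Galnt14 was chosen for its fall on these same arrays, so the gap and the place describe it and are no evidence.

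**Figure D1:**
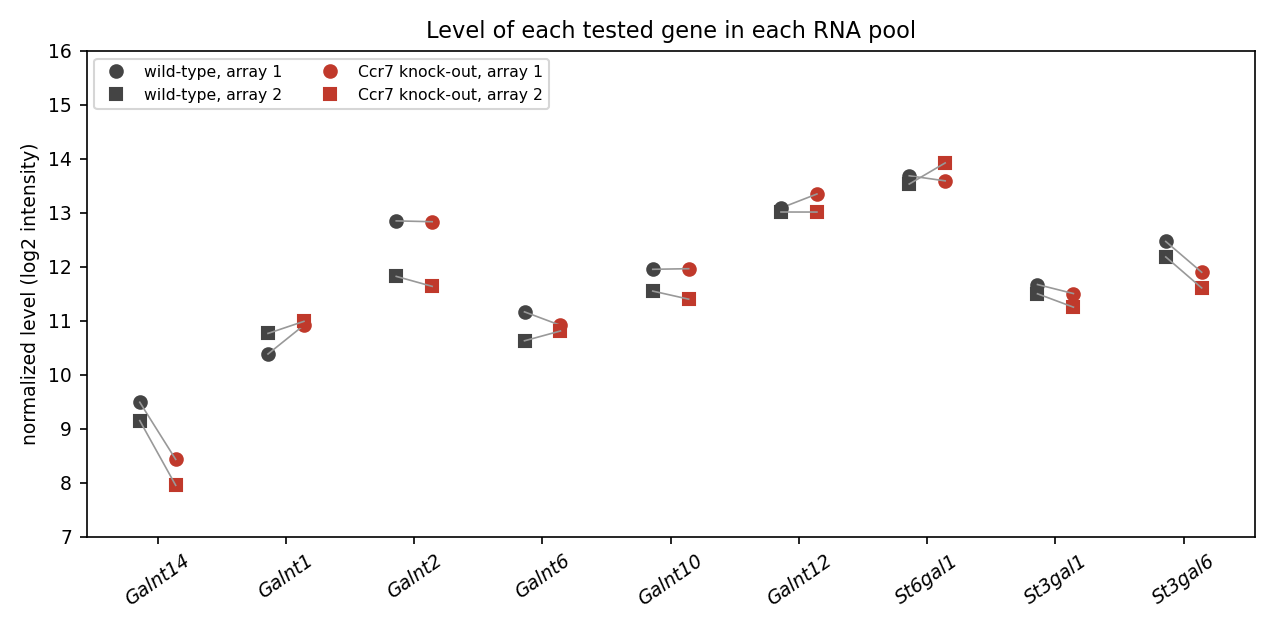
Normalized level (log2 intensity, vertical axis) of the 9 genes tested, in each of the 4 RNA pools; circles are array 1, squares array 2, grey the wild-type and red the knock-out, and a line joins the pools of 1 array. Galnt14 falls from 9.49 to 8.43 and from 9.15 to 7.95, St3gal6 falls in parallel on both arrays, and Galnt2 differs more between arrays than between genotypes. Levels of different genes come from different probes and are not compared.

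The second Galnt14 probe gave no measurement of the difference. Its spot intensities were 97 and 84 in the wild-type and 81 and 87 in the knock-out, and it was not well above background in any of the 4 channels. Its log2 ratios were -0.02 and -0.19. Since both genotypes lay at background, these values neither repeat nor oppose those of probe 1, and the difference in Galnt14 rests on a single probe.

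The adjusted p of Galnt14 in limma, with Benjamini-Hochberg adjustment over all genes tested, was 0.049, against a threshold of 0.05. It was the 1 of 9 tested members past that threshold, which 0.102% of all genes passed, 0.0339% in the downward direction. Nothing is read from this, since Galnt14 was taken up because of it. The call was absent in 8 of 13 other processing settings, with adjusted p from 0.0026 to 0.9998 over the 13. The 13 include separate channels with array as a block, which had to repeat the reported call. The ratio itself lay between -1.49 and -1.08 in those settings. Those that changed only the filter, prior, probe choice, low-gain spots or channel model could not alter it and returned the same -1.13. It was below 0 in all that changed the background correction, normalization or ratio source. The median of all genes was -0.39 without within-array normalization, which gave the -1.49, and -0.17 with median centring. Relative to that median the Galnt14 ratio was -1.10 in both, against -1.12 in the setting reported.

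**Figure D2:**
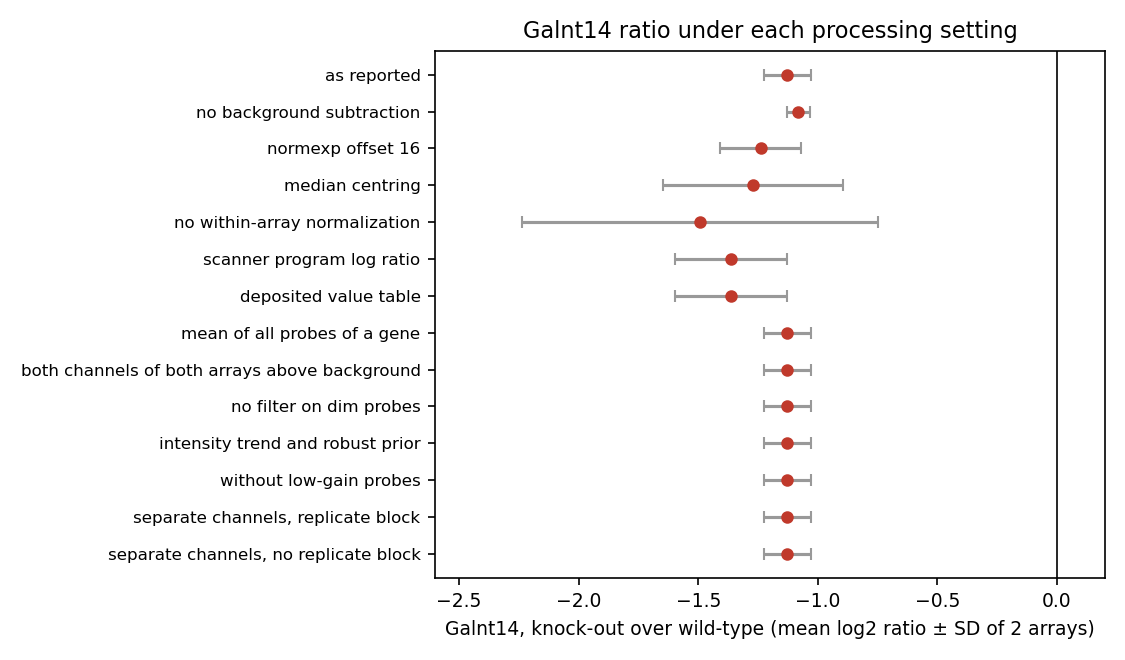
Mean log2 ratio of Galnt14, knock-out over wild-type (horizontal axis), under the setting reported and 13 others; points are means and bars the SD of 2 arrays. The ratio stays between -1.49 and -1.08, and the SD is widest, 0.75, without any within-array normalization. There and with median centring the ratio includes a shift of all genes, whose medians were -0.39 and -0.17. Settings that change only the filter, prior, probe choice, low-gain spots or channel model repeat the reported value, since they cannot alter it.

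Among the other 6 GalNAc transferase members, Galnt1 was the 1 with both knock-out pools above both wild-type pools. Galnt1 encodes a broadly expressed enzyme that starts O-glycans on many substrates. Its level was 10.38 and 10.76 in the wild-type and 10.92 and 10.99 in the knock-out, so the pools did not overlap, with a gap of 0.15. The log2 ratios were 0.53 and 0.22, a mean of 0.38 ± 0.22 (SD, n = 2) or 1.30-fold. The mean turned to -0.12 without within-array normalization, where array 1 gave 0.62 and array 2 gave -0.86. The median of all genes was -0.39 in that setting and -0.17 with median centring, where Galnt1 had 0.58 and -0.38. Relative to that median Galnt1 was 0.28 higher. The 2 settings must give the same relative value, since median centring only subtracts a constant from each array. The Galnt1 probe spans positions 24423034 to 24425152 of chromosome 18 on mm8. That span of 2119 bases is longer than the probe of 60, so the match is split in the genome.

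Galnt2, the other broadly expressed enzyme, differed more between arrays than between genotypes. Its brighter probe gave levels of 12.85 and 11.82 in the wild-type and 12.83 and 11.64 in the knock-out. Array 2 was thus lower than array 1 by 1.03 in the wild-type and 1.20 in the knock-out, while the ratios of knock-out over wild-type were only -0.02 and -0.18. Its dimmer probe, 8904 bases away, gave ratios of -0.19 and 0.04. The pools of the genotypes overlapped with both probes.

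Galnt3 encodes an enzyme best known for glycosylating the phosphate hormone FGF23, and it was at background in these cells. Its 2 probes lie 81 bases apart on chromosome 2. Of their 8 channel readings only 1 was well above background, the knock-out on array 1 with the brighter probe, at a spot intensity of 106 against 93 in the wild-type. Neither probe passed the filter, so Galnt3 has no tested value and no fold is given.

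Galnt6, a close relative of Galnt3 in sequence, was measured well in all channels. Its brighter probe gave levels of 11.16 and 10.63 in the wild-type and 10.91 and 10.81 in the knock-out. The knock-out pools lay between the wild-type pools, and the ratios went opposite ways, -0.25 and 0.18. Its dimmer probe, 767 bases away, gave -0.06 and 0.02.

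Galnt10 encodes an enzyme that prefers peptides already carrying GalNAc. Its brightest probe gave levels of 11.95 and 11.55 in the wild-type and 11.96 and 11.40 in the knock-out, with ratios of 0.01 and -0.15. The second probe, 220 bases away, gave -0.24 and -0.08. Probe 3, the one low in GC, was at 117 and 126 in spot intensity in the wild-type and 107 and 98 in the knock-out, over backgrounds of 49.5 to 61, and 3 of its 4 channels were well above background. The pools overlapped with the brightest probe, and the means of the 3 probes lay between -0.19 and -0.07.

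Galnt12, whose enzyme is known from the colon, gave levels of 13.09 and 13.01 in the wild-type and 13.35 and 13.01 in the knock-out. The ratio was 0.26 on array 1 and within 0.001 of 0 on array 2, so the pools overlapped.

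**Figure D3:**
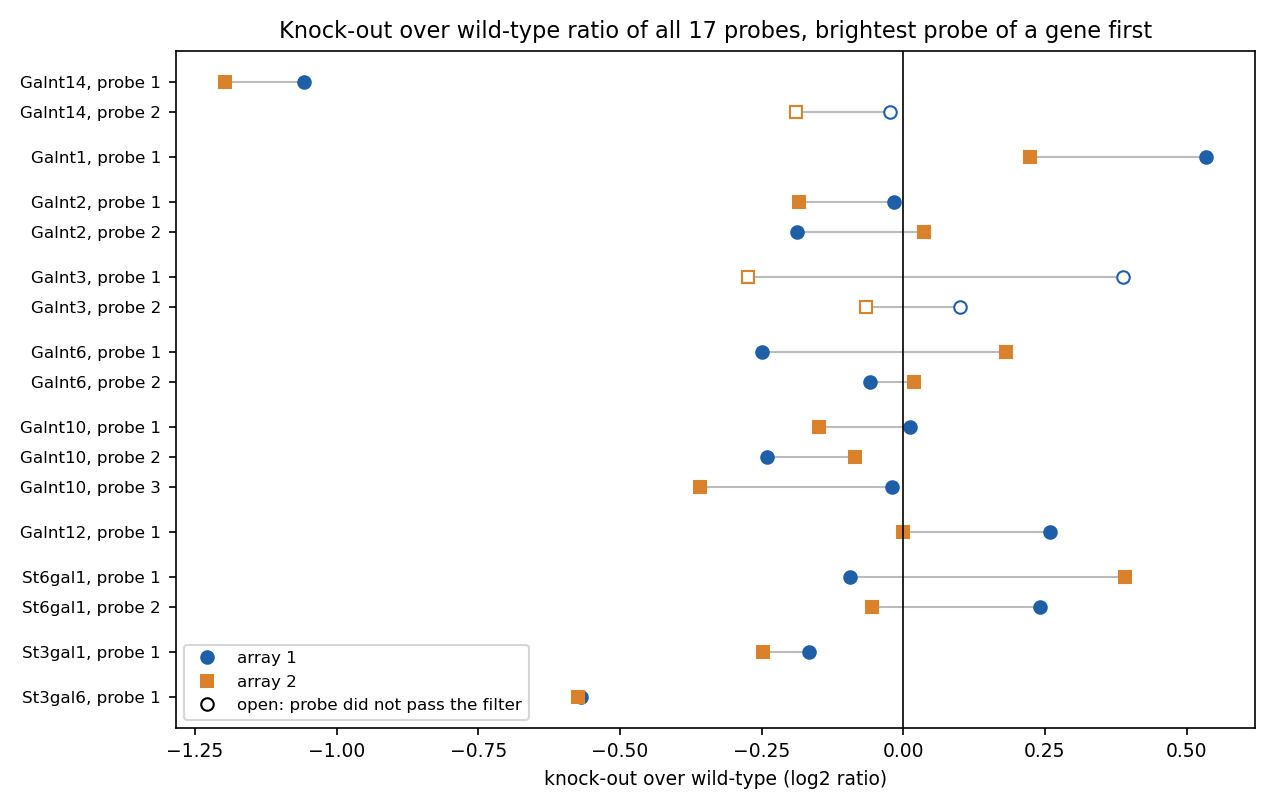
Ratio (log2, knock-out over wild-type, horizontal axis) of all 17 probes; circles are array 1, squares array 2, a line joins the arrays, and open symbols are the 3 probes that did not pass the filter on dim probes. Galnt14 probe 1 stands at -1.06 and -1.20 and St3gal6 at -0.57 on both arrays, while probes of most other members lie on both sides of 0.

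Of the sialyltransferases, St3gal6 was lower in the knock-out and gave nearly the same ratio on both arrays. Its enzyme adds sialic acid to galactose at the end of lactosamine chains and takes part in making selectin ligands. Its level was 12.47 and 12.18 in the wild-type and 11.90 and 11.61 in the knock-out. Both knock-out pools lay below both wild-type pools, with a gap of 0.28, close to the 0.29 between the pools of either genotype. The log2 ratio was -0.57 on both arrays, a mean of -0.572 ± 0.004 (SD, n = 2), or 1.49-fold lower. The deposited value table, made by another processing, gave -0.57 and -0.56 for the same spots. With median centring the arrays parted, at -0.47 and -1.24, and the gene stayed below the median of all genes, by 0.68.

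St3gal1, whose enzyme caps the galactose of core 1 O-glycans, moved less. Its level was 11.67 and 11.50 in the wild-type and 11.50 and 11.25 in the knock-out. The higher knock-out pool lay level with the lower wild-type pool, so the genotypes touched. The ratios were -0.17 and -0.25, a mean of -0.21 ± 0.06 (SD, n = 2).

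St6gal1, the enzyme of the CD22 ligand, did not separate the genotypes. Its level was 13.68 and 13.53 in the wild-type and 13.59 and 13.92 in the knock-out with the brighter probe. The ratios were -0.09 and 0.39. The dimmer probe, 1632 bases away, gave them with the signs turned, 0.24 and -0.06. Cd22 itself, a B-cell marker here, had ratios of 0.20 and 0.41 and did not pass the threshold (limma adjusted p = 0.562).

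Taken by their arrays, 4 of the 9 tested members were lower in the knock-out on both (Galnt14, Galnt2, St3gal1 and St3gal6), as were 30.0% of all genes. On both arrays 1 member was higher (Galnt1), as were 24.2% of all genes, and 4 had opposite signs. Galnt14 and St3gal6 were the 2 members with both knock-out levels below both wild-type levels, an order that 13.3% of all genes showed. Galnt1 was the 1 with both above, as were 9.57% of all genes. Galnt14 alone was at least 1.5-fold lower on both arrays, as were 0.367% of all genes, and St3gal6 lay just short of that size. The median ratio was -0.07 over the 9 members and -0.01 over all genes. Since the contrast entered the choice of the members, these counts carry no weight as evidence.

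**Figure D4:**
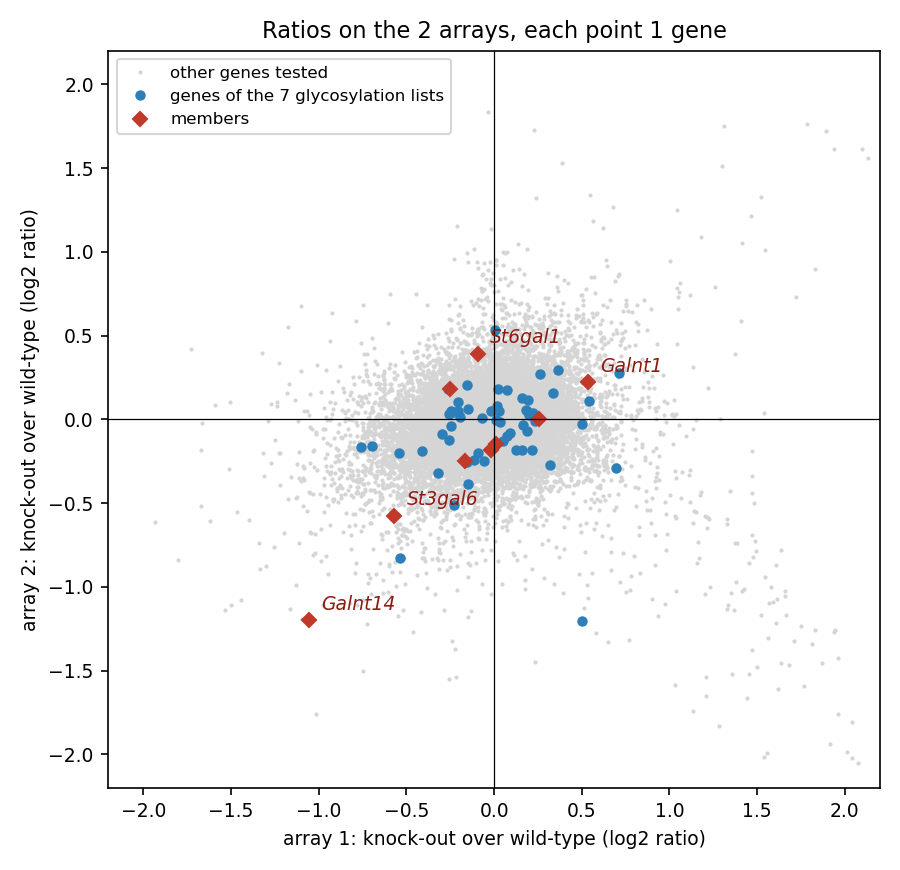
Ratio (log2, knock-out over wild-type) on array 1 (horizontal axis) against array 2 (vertical axis), each point 1 gene: grey for genes tested, blue for the glycosylation lists, red for the members. Galnt14 lies at -1.06 and -1.20, St3gal6 at -0.57 on both arrays, and most red and blue points lie near 0; 5 genes lie outside the axes.

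The 5 genes whose pair of ratios lay nearest to that of Galnt14, by Euclidean distance over 2 arrays, were Wfdc21, H2bc4, Upb1, Rgs2 and Car2. Wfdc21 was nearest, with -1.10 and -1.19 and a distance of 0.038. H2bc4, a histone gene, had -1.16 and -1.13 at a distance of 0.12. Upb1, an enzyme of pyrimidine breakdown, had -0.98 and -1.11 at 0.12. Rgs2, a regulator of G-protein signalling, had -1.13 and -0.99 at 0.22, and the carbonic anhydrase gene Car2 had -0.82 and -1.10 at 0.26. With 2 arrays this likeness says only that both ratios were of like size.

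The rest of the pathway was read through 7 lists of genes, none of them a member. Of their 79 genes, 77 were on the array and 57 were tested. Limma called 0 of the 57 at an adjusted p of 0.05, in either direction, against 0.102% of all genes. At an unadjusted p of 0.05, 8 of 57 passed (14%), against 9.13% of all genes. On both arrays 16 were higher and 15 lower, where 24.2% and 30.0% of all genes were, and 26 had opposite signs. The median ratio over the 57 was -0.01, as over all genes. Leaving out probes read at low gain, 1 of 56 passed, Spn, where 131 of all 16759 genes did.

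Of 12 other GalNAc transferase genes 5 were tested and 7 were too dim, among them Galnt9 and Galnt15. Galnt7, whose enzyme adds to peptides already glycosylated, had the largest difference of the 5, with ratios of -0.76 and -0.17. Galnt4, another enzyme of that kind, had 0.26 and 0.27, and Galnt11 had -0.07 and 0.01. None passed the threshold, with a smallest limma adjusted p of 0.463.

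Of the 14 genes that extend the chain, 10 were tested and 0 called, with a smallest limma adjusted p of 0.502. C1galt1, the core 1 galactosyltransferase, had ratios of -0.21 and 0.05. Its chaperone gene C1galt1c1 had 0.34 and 0.16. Gcnt1, whose enzyme branches core 1 into core 2, had 0.36 and 0.29. B4galt1, a galactosyltransferase of lactosamine chains, had 0.05 and -0.13.

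Of 17 other sialyltransferase genes 14 were tested and 0 called, with a smallest limma adjusted p of 0.476. That value belongs to St3gal4, whose enzyme shares its acceptor with that of St3gal6, and its ratios were -0.23 and -0.51. The St3gal4 probe was dim, with levels of 6.92 and 6.93 in the wild-type and 6.69 and 6.42 in the knock-out. St3gal2, which acts on core 1 galactose as St3gal1 does, had -0.15 and 0.21. St6galnac4, whose enzyme adds sialic acid to the GalNAc of O-glycans, had -0.24 and 0.05, and St6galnac6, whose enzyme acts on glycolipids, had 0.03 and 0.05. Thus 3 of the 14 were lower on both arrays, 3 higher on both and 8 opposite.

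Among 9 tested genes of sialic acid supply and removal 0 were called, with a smallest limma adjusted p of 0.492. Gne, the first enzyme of sialic acid synthesis, had ratios of 0.20 and 0.04, and Cmas, which activates sialic acid, had 0.02 and 0.18. Slc35a1, the transporter that carries it into the Golgi, had -0.15 and 0.06. Cmah, which converts it to the glycolyl form found in mice, had -0.09 and -0.20. The lysosomal sialidase gene Neu1 had -0.11 and -0.24.

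Of the 6 genes that supply UDP-GalNAc and UDP-galactose, all tested, 0 were called, with a smallest limma adjusted p of 0.763. Uap1 had ratios of -0.26 and 0.18, and the UDP-galactose transporter gene Slc35a2 had 0.19 and -0.07. Of 9 genes for fucosyl and sulfo transferases 5 were tested and 0 called, with a smallest limma adjusted p of 0.362. Fut8, which adds fucose to the core of N-glycans, had 0.0045 on array 1 and 0.53 on array 2.

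Of 11 genes for mucin-like acceptor proteins 8 were tested and 0 called, with a smallest limma adjusted p of 0.223. This was Spn, which encodes the heavily O-glycosylated sialoprotein CD43, with ratios of -0.54 and -0.83 and a mean of -0.68. Its limma adjusted p was 0.0495 without low-gain probes, and the mean of its probes that passed the filter was -0.39. Selplg, the gene of PSGL-1, had -0.15 and -0.25, and Cd24a, a small mucin-like protein, had -0.15 and -0.39. Ptprc, the gene of CD45, had 0.69 and -0.29, and both Ptprc and Cd24a had a channel taken from the scan at low gain.

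Markers of other cells that the sort could hold were examined beside these values. Of 10 T-cell markers 7 were well above background in every channel and Trat1 in none. Their summed level (log2 of the summed intensities) was 10.85 and 10.88 in the wild-type and 10.63 and 10.62 in the knock-out. Of the 8 tested, 5 were lower on both arrays, as were 30.0% of all genes, and 0 were higher on both. The 5 were Thy1 (-0.78 in the mean), Cd3d (-0.60), Il7r (-0.49), Cd8a (-0.39) and Cd4 (-0.03). Lat (0.14 in the mean), Cd3e (0.03) and Cd3g (0.01) went opposite ways on the arrays. Il7r passed the filter only through the wild-type, so it could hardly have been tested as higher. Limma called none of the 8 T-cell markers. Their part in the lower Galnt14, St3gal6 and Spn values was not tested. Of 10 stromal and endothelial markers 5 were above background in every channel, and Pdgfrb, Pdpn and Emcn in none. Their summed level was 11.63 and 11.76 in the wild-type and 11.59 and 11.75 in the knock-out, most of it from Pecam1. Of 7 NK-cell markers 3 were above background in every channel, and Ncr1, Gzma and Eomes in none. Their summed level was 9.98 and 9.81 in the wild-type and 10.01 and 9.69 in the knock-out. Of the 4 tested, Klrd1 was lower on both arrays (-0.57 in the mean) and Prf1 higher on both (0.37). Epithelial markers, 4 of 6 in every channel and Cdh1 in none, summed to 9.75 and 9.80 in the wild-type and 9.67 and 9.85 in the knock-out. For myeloid and dendritic cells 6 of 10 markers were above background in every channel and Siglech in none. Their summed level was 12.38 and 13.23 in the wild-type and 13.26 and 12.65 in the knock-out, so the genotypes overlapped. Most of that sum was Lyz2, with ratios of 1.22 and -0.60. Of the 8 tested, 2 were higher on both arrays (Itgax and S100a9), as were 24.2% of all genes. Adgre1 was the 1 lower on both (-0.29 and -1.14), as were 30.0% of all genes. Of 6 plasma cell markers 5 were above background in every channel and Tnfrsf17 in none. Limma called 1 of them, Jchain, as higher (1.81 in the mean, limma adjusted p = 0.0177). The other means were 0.70 for Xbp1, -0.64 for Sdc1, -0.25 for Prdm1 and -0.21 for Irf4. The median of the 5 tested was -0.21, with 2 higher on both arrays (Jchain and Xbp1) and 2 lower on both (Sdc1 and Irf4). The summed level of that list was 12.87 and 13.14 in the wild-type and 13.10 and 13.80 in the knock-out, most of it from Xbp1 and Irf4.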

How the data were processed

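Two-colour arrays of B-cell RNA were read by Agilent Feature Extraction 9.5.3.1, per the submitters' processing notes and the file headers. The deposited intensity values are each spot's mean signal and local median background, unnormalized. The deposited log10 ratio of Cy5 over Cy3 comes from that program after its own background subtraction and dye normalization, per the file headers. The log2 value table the authors deposited equals that ratio, oriented as knock-out over wild-type, at 42512 and 42515 of 43379 spots, within 0.001. The origin of its other values is unknown here.

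Background was corrected with normexp (offset 50) and ratios normalized by loess (span 0.3, 4 iterations, weight 0 for 1639 control spots), using limma 3.58.1 and R 4.3.3. The offset shrinks ratios of dim probes. Spots with outlier flags were left out. A probe was kept where 1 genotype was well above background on both arrays, and its brightest kept probe stood for a gene. Levels are channel values after quantile normalization of mean intensities between arrays. Oriented ratios were fitted with lmFit and eBayes over 17695 genes, with 1 residual and 6.19 prior degrees of freedom and Benjamini-Hochberg adjustment, threshold 0.05. The fit was tested on simulated data. Of 41174 probes, 24375 were named by accession, 6301 by symbol and 2426 by synonym in the RefSeq table of GRCm38.p6, whose coordinates were not used.

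The members and lists were chosen with earlier results of these data known. Named genes were all members, list genes fixed by role, any list gene past the threshold and the 5 genes nearest to Galnt14; 1 list gene is not reported here. Alternatives changed the background correction, normalization, ratio source, probe choice, filter, prior, low-gain spots and channels.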

Additional observations from a re-analysis of the deposited data

How the results depend on the processing

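The ratio of Galnt14 was below 0 under every alternative that could alter it, those of background correction, normalization and ratio source. It was -1.24 with a normexp offset of 16, -1.27 with median centring, -1.49 without within-array normalization, and -1.36 with both the scanner program's log ratio and the deposited value table. Relative to the median of all genes, the ratio was -1.10 both with median centring and without within-array normalization. Leaving out either array, which allows no test, gave -1.20 and -1.06. The count of members past the threshold, 1, was 0 with no background subtraction, with median centring, with no within-array normalization, with either the log ratio of the scanner program or the deposited value table, with the mean of all probes, with all 4 channels above background, and with separate channels and no replicate block. With array as a replicate block the separate channels gave 1, and a log2 ratio of -1.13. With 2 arrays that model makes the same paired comparison as the ratio fit, so it had to return the reported result. The count of pathway genes past the threshold, 0, was 1 without low-gain probes, where the count over all genes was 131 against 18, and 0 in the other 12 settings. The cause of these changes was not tested. Of the values of the 8 other tested members under these settings, 88 moved by less than the SD between arrays and 16 by more. Settings of the filter, prior, low-gain spots and channel model left each of these ratios unchanged. Many of the 88 therefore could not have moved and are no measure of stability. Galnt6, Galnt12 and St6gal1 each changed sign in 2 settings and Galnt1 in 1. For Galnt12 and St6gal1 these were median centring and no within-array normalization. Relative to the median of all genes both stayed above 0 there, at 0.024 and 0.035. Galnt6 turned to 0.002 with the scanner program's log ratio and with the deposited value table, which hold the same value. No count of calls could be had with an array left out, since no residual degree of freedom remains. Signal over background limits the dim probes of Galnt3, Galnt10 and Galnt14.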

Other observations

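For dim probes the deposited values and the ratios given here differed widely on the same spots. Galnt10 probe 3 had -2.64 on array 2 in the deposited value table and -0.36 after normexp with an offset. The brighter Galnt3 probe had 2.23 and -1.24 in the deposited value table, opposite ways on the arrays, and 0.39 and -0.28 here. Galnt14 probe 2 had -1.01 on array 1 there and -0.02 here. None of these 3 probes was well above background in all 4 channels.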
